A study of Homo sapiens with 6 samples.

Results

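The GALNT genes encode polypeptide N-acetylgalactosaminyltransferases, the Golgi enzymes that start mucin-type O-glycosylation. Of 30618 genes with counts, 10 were followed here by their symbols: GALNT1, GALNT2, GALNT3, GALNT5, GALNT6, GALNT7, GALNT10, GALNT11, GALNT12 and GALNT14. These members were selected on values of the same comparison, the counts and FPKM of NC and siEIF1 libraries. FPKM are fragments per kilobase of transcript, scaled to the library's mapped fragments. Differences of members between these groups are therefore given as a description, without p-values. Where a member is said to pass or miss a threshold, this describes the values it was chosen on and is no test. The study asked how loss of EIF1, a factor that helps the ribosome choose the start codon, changes the transcriptome of ARPE-19 cells in high glucose. ARPE-19 is an established human line from the retinal pigment epithelium (RPE), the cell layer beneath the photoreceptors. Polyadenylated RNA was sequenced from 3 NC libraries, which received a negative control siRNA, and 3 siEIF1 libraries, which received an siRNA against EIF1. All 6 came from cells in 50 mM glucose, per the study's methods. The model is a single transformed line, 1 siRNA sequence is given for EIF1, and high glucose had no osmotic control.

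Mucin-type O-glycosylation begins when a GALNT enzyme moves N-acetylgalactosamine from UDP-GalNAc to a serine or threonine of a protein passing through the Golgi. Other enzymes then add galactose, further N-acetylglucosamine or sialic acid to that first sugar. The family is large, its members differ in the peptides they prefer, and several of them act best on peptides that already carry a sugar. In epithelia such glycans coat cell-surface mucins and protect membrane proteins from cleavage.

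All 10 members had counts, and 9 passed the filter on low counts. GALNT14, with between 2 and 6 reads per library, did not. An adjusted p under 0.05 was reached by 4 members with a higher level in siEIF1 (GALNT1, GALNT2, GALNT5 and GALNT10) and by 1 with a lower level (GALNT7), while GALNT3, GALNT6, GALNT11 and GALNT12 did not pass. Over all 16749 tested genes, 10.2% passed with a higher and 10.4% with a lower level. With a fold change above 2 as a further requirement, GALNT5 was the 1 member called, against 0.400% of all tested genes called higher. The median log2 fold change of the 9 tested members was 0.20, against 0.00 over all tested genes. Since the members were chosen with this comparison in view, nothing is read from these shares.

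Promoter sequence is shown for a pair of members with higher levels in siEIF1 (GALNT2 and GALNT10), for the 1 with a lower level (GALNT7) and for the member with the highest FPKM in NC cells (GALNT12). Each run holds the 250 bases before a RefSeq transcript start, 5′ to 3′ on the gene's strand, which is the plus strand for all 4 (GRCh38.p14). They lie at chr1:230066988-230067237, chr5:154190483-154190732, chr4:173168561-173168810 and chr9:98807420-98807669, in that order. Capitals mark the GC box, the letters GGGCGG on either strand.
GALNT2: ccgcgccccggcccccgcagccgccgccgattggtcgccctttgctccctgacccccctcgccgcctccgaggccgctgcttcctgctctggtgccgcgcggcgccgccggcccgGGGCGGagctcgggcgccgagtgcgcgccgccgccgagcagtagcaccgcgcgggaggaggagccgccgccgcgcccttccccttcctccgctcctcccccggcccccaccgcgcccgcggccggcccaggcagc
GALNT10: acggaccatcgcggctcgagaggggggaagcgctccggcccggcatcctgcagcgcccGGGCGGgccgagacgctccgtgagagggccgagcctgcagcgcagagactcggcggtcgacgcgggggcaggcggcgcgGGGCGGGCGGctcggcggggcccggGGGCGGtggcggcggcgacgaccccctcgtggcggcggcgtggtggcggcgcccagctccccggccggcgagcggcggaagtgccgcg
GALNT7: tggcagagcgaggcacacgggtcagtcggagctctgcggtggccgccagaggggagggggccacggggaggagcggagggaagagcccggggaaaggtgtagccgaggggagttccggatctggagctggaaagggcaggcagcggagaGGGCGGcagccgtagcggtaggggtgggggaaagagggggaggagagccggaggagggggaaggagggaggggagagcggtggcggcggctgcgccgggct
GALNT12: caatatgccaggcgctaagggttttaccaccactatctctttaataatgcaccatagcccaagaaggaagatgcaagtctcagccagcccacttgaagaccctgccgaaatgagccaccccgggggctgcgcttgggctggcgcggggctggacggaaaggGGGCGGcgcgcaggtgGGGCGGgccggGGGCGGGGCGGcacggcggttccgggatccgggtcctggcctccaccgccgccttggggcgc
GALNT2 and GALNT7 held 1 GC box each, GALNT10 and GALNT12 held 4 each, and neighbouring boxes can overlap. The table held 11 promoter entries for 8 members, since GALNT1 and GALNT14 have more than 1 start. A GC box was in 8 of these 11 entries and in 42.6% of all 35116 entries of the same length, and GALNT11 was the 1 member without it in any entry. The CCAAT box, the letters CCAAT on either strand, was in 4 of the 11 entries and in 32.0% of all entries, and TATAAA was in 0 of the 11 and in 10.7% of all entries. The printed promoters had GC contents of 82.8% for GALNT2, 82.4% for GALNT10, 72.4% for GALNT7 and 67.2% for GALNT12, against a median of 58.0% over all entries. Of the member entries not printed, that of GALNT11 (50.0%), an entry of GALNT1 (47.2%) and an entry of GALNT14 (45.2%) lay below this median. The others ranged from 71.6% (GALNT3) to 87.2% (GALNT1). These matches describe letters in a window, and the promoters of higher and lower members both carried the GC box.

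EIF1 itself was reduced in every siEIF1 library, from an FPKM of 285.6 ± 7.60 to 23.49 ± 0.80 (SD, n = 3 each), with a log2 fold change of -3.58 (SE 0.055). Libraries held between 26499929 and 31431479 counts. Of 12 RPE markers, 8 were tested. BEST1, OTX2 and MITF had mean FPKM of 66.0, 17.8 and 5.84 in NC cells, while the pigment genes TYR and TYRP1 did not pass the filter. RPE65 and TTR had no entry among the genes with counts. The summed FPKM of the RPE markers ranged from 87.6 to 97.1 in NC and from 66.8 to 90.2 in siEIF1. This sum is mostly that of BEST1, with FPKM of 70.79, 66.58 and 60.54 in NC and 62.06, 55.04 and 38.79 in siEIF1. These overlapped, and BEST1 did not pass (log2 fold change -0.32, SE 0.13). OTX2 at 0.10 (SE 0.047), with every siEIF1 library above every NC library, and MITF at -0.04 (SE 0.052) did not pass either. RLBP1 was the 1 RPE marker that passed, at a log2 fold change of 1.55 (SE 0.26) from a mean FPKM of 0.24. Of 6 epithelial markers, KRT8 and KRT18 passed among the 4 tested, at log2 fold changes of 0.24 (SE 0.057) and 0.25 (SE 0.052), and the list's summed FPKM ranged from 447.8 to 468.2 in NC and from 518.8 to 541.1 in siEIF1. KRT8 missed the threshold without NC replicate 1 (adjusted p = 0.0505) or siEIF1 replicate 2 (adjusted p = 0.0528). TJP1 at 0.11 (SE 0.065) and CLDN1 at -0.16 (SE 0.081) did not pass, and EPCAM and CDH1 did not pass the filter. The summed FPKM of this list is mostly that of KRT18 and KRT8, with means of 326.5 and 113 in NC. Endothelial and leukocyte lists of 5 markers each had summed FPKM of at most 0.31 and 1.01 in any library, and 0 of their 3 tested markers passed. Whether the higher levels of KRT8 and KRT18 have a part in the members' values was not tested. In bulk RNA a lower level can mean fewer cells with the transcript or less of it per cell, and these cannot be told apart.

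**Figure D1:**
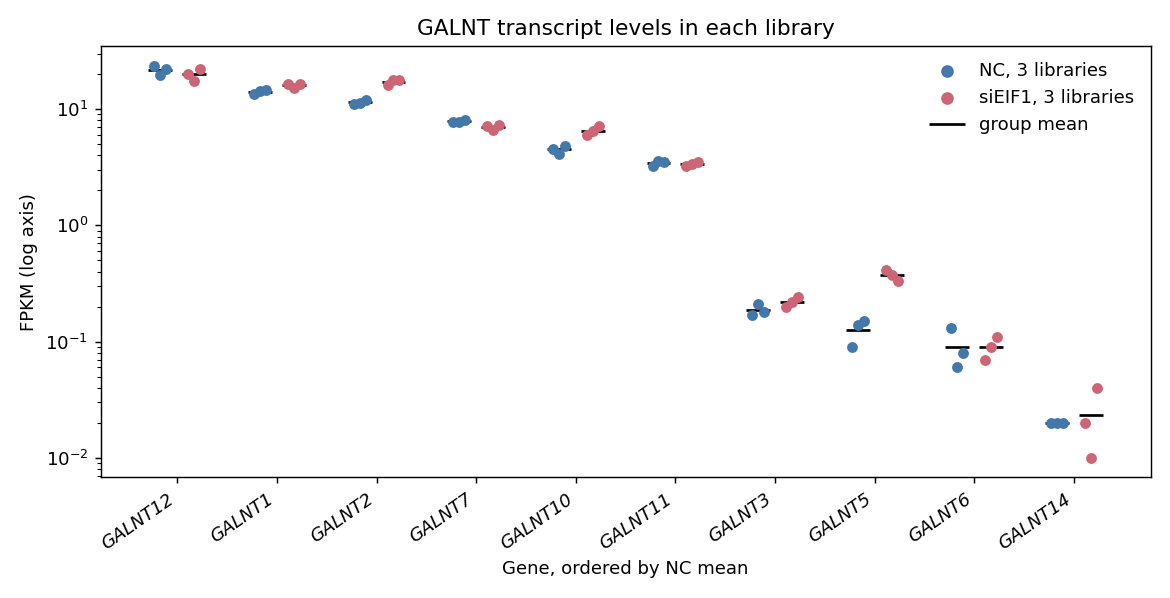
Transcript level of each member in every library, as FPKM on a log axis, with NC and siEIF1 libraries as separate points and a bar at each group mean of 3 libraries. GALNT12, GALNT1, GALNT2, GALNT7, GALNT10 and GALNT11 lie above 3 FPKM in all libraries and the other 4 members below 0.5 FPKM, and the NC and siEIF1 points of GALNT5 stand apart.

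The members fell into a well-detected and a scarce set. In NC cells the mean FPKM was 21.8 ± 2.03 for GALNT12, 14.2 ± 0.60 for GALNT1, 11.5 ± 0.48 for GALNT2, 7.85 ± 0.13 for GALNT7, 4.52 ± 0.38 for GALNT10 and 3.45 ± 0.16 for GALNT11 (SD, n = 3). The scarce members were GALNT3 at 0.187 ± 0.021, GALNT5 at 0.127 ± 0.032, GALNT6 at 0.090 ± 0.036 and GALNT14 at 0.020 in each NC library. Of neighbours in this order, only GALNT5 and GALNT6 overlapped in their NC libraries. In siEIF1 cells the order became GALNT12, GALNT2, GALNT1, GALNT7, GALNT10, GALNT11, GALNT5, GALNT3, GALNT6 and GALNT14, and the ranges of GALNT12 and GALNT2, of GALNT2 and GALNT1 and of GALNT7 and GALNT10 overlapped. This order depends on the length that each FPKM was divided by. Gene lengths were derived from the deposited FPKM with each library's summed counts as its total. They were from 1.30 times (GALNT5) to 3.71 times (GALNT11) those of the canonical GENCODE transcripts. For GALNT2, GALNT7, GALNT10, GALNT11 and GALNT12 they were 9.46, 8.35, 12.9, 10.2 and 3.88 kilobases. The exons of these genes hold fewer bases, at 7712, 6807, 10496, 8288 and 3166. The derived lengths stood above the exonic bases by nearly the same factor in each of these genes. The total behind the FPKM is not given, and a larger one would make all ratios too high by the same factor. With CPM (counts scaled to the library size) per kilobase of the canonical transcript instead, an alternative chosen after the data were seen, GALNT12 led in NC at 30.5 ± 2.73 and GALNT2 in siEIF1 at 37.2 ± 2.26. On that scale GALNT2 came before GALNT1 in NC as well, GALNT11 came before GALNT10 in NC, and GALNT10 before GALNT7 in siEIF1.

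GALNT1 and GALNT2 are broadly expressed enzymes that start O-glycans on many proteins. GALNT1 (ENSG00000141429.14, chr18:35581117-35711834, plus strand, 12 exons in the canonical transcript) had FPKM of 13.51, 14.29 and 14.69 in NC and 16.42, 15.31 and 16.48 in siEIF1. All siEIF1 values lay above all NC values, and its log2 fold change was 0.20 (SE 0.048), which passed the test. GALNT2 (ENSG00000143641.10, chr1:230057990-230282122, plus strand, 16 exons) is known to act on lipid-metabolism proteins such as PLTP. Its FPKM were 11.09, 11.39 and 12.02 in NC and 16.07, 17.64 and 17.96 in siEIF1. The groups did not overlap, and GALNT2 had the largest change in FPKM among the members, from 11.5 ± 0.48 to 17.2 ± 1.01 (SD, n = 3). Its counts of 2780, 3079 and 3157 in NC and 4759, 5010 and 5006 in siEIF1 gave a log2 fold change of 0.60 (SE 0.054), a 1.52-fold higher level. PLTP, at 29.2 ± 0.27 FPKM in NC and 29.4 ± 0.44 in siEIF1, did not pass.

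GALNT5 (ENSG00000136542.9, chr2:157257705-157318491, plus strand, 10 exons) encodes the longest protein of the set, with 940 coding codons against 552 to 657 in the others, and has a canonical transcript of 10344 bases. Its counts were 31, 53 and 58 in NC and 172, 149 and 130 in siEIF1. The FPKM were 0.09, 0.14 and 0.15 in NC and 0.41, 0.37 and 0.33 in siEIF1. The lowest siEIF1 library had more than the highest NC library on both scales. The log2 fold change was 1.56 (SE 0.19), a 2.94-fold higher level, and it stayed between 1.35 and 1.71 when single libraries were left out. On the log2(FPKM + 1) scale the same change was 0.28, since all FPKM of GALNT5 lie well under the added 1. The transcript stayed scarce in siEIF1 cells, at 0.370 ± 0.040 FPKM, and GALNT12 had 19.9 ± 2.26 FPKM in the same libraries.

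GALNT3 and GALNT6 are close relatives in sequence. GALNT3 (chr2:165747588-165794659, minus strand) glycosylates the phosphate hormone FGF23 and protects it from cleavage. Its counts of 25, 33 and 28 in NC and 36, 37 and 39 in siEIF1 were low, its FPKM overlapped between the groups, and its log2 fold change of 0.27 (SE 0.23) did not pass. GALNT6 (chr12:51351247-51392867, minus strand), which is known to act on fibronectin, had counts of 31, 15 and 19 in NC and 21, 25 and 30 in siEIF1. These overlapped, and its log2 fold change of 0.11 (SE 0.33) did not pass. GALNT14 (chr2:30910467-31155202, minus strand), an enzyme tied to the glycosylation of TRAIL death receptors, had 3 reads in each NC library and 4, 2 and 6 in siEIF1. At these counts a change in GALNT3, GALNT6 or GALNT14 of the size seen for GALNT1 was not detectable.

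GALNT7 and GALNT10 are the members known to prefer peptides that already carry GalNAc, and they moved in opposite directions. GALNT7 (ENSG00000109586.12, chr4:173168811-173323967, plus strand, 12 exons) had FPKM of 7.79, 7.75 and 8.0 in NC and 7.11, 6.6 and 7.23 in siEIF1. All siEIF1 values were lower, by 0.15 on the log2 scale (log2 fold change -0.15, SE 0.048). This small difference passed the threshold narrowly and was lost without any 1 of NC replicates 1, 2 and 3 (log2 fold changes of -0.15, -0.16 and -0.15) and of siEIF1 replicates 1 and 2 (-0.16 and -0.13). GALNT10 (ENSG00000164574.16, chr5:154190730-154420984, plus strand, 12 exons) had FPKM of 4.58, 4.11 and 4.86 in NC and 5.94, 6.47 and 7.17 in siEIF1. The groups did not overlap, and the log2 fold change was 0.55 (SE 0.069), a 1.47-fold higher level. Exons of GALNT10 share 121 bases with MFAP3 on the same strand, and reads there could be assigned to either gene. Exons of GALNT2, GALNT6, GALNT7, GALNT10, GALNT11, GALNT12 and GALNT14 also overlap genes on the other strand, by 36 to 1029 bases, and the strand setting of the counting is not given in the sources used here.

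GALNT11 and GALNT12 were well detected and did not pass. GALNT11 (chr7:152025674-152122340, plus strand) modifies NOTCH1 and the linkers of LDL receptor family proteins. Its FPKM of 3.27, 3.56 and 3.52 in NC and 3.27, 3.36 and 3.5 in siEIF1 overlapped, with a log2 fold change of -0.013 (SE 0.059). GALNT12 (chr9:98807670-98850081, plus strand), variants of which have been linked to colorectal cancer, had FPKM of 23.7, 19.67 and 22.08 in NC and 20.09, 17.6 and 22.12 in siEIF1. These overlapped as well, and its log2 fold change was -0.11 (SE 0.074). Over the 10 members, CPM did not overlap between the groups for 4 members higher and 1 lower in siEIF1, the same 5 that passed the test. Both come from the same counts, on which the members were also chosen, so their match adds no support. Among all tested genes, 18.2% did not overlap with siEIF1 higher and 18.9% with siEIF1 lower.

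**Figure D2:**
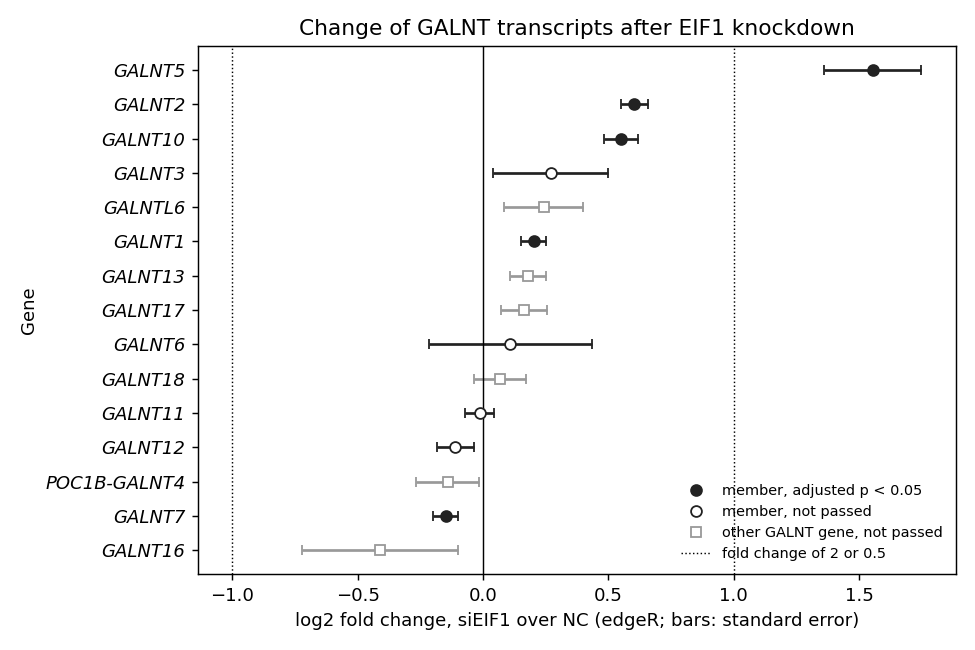
Log2 fold change of siEIF1 over NC for the 9 tested members and the 6 other tested GALNT genes, with bars of 1 standard error on either side and dotted lines at fold changes of 2 and 0.5. Filled points passed an adjusted p under 0.05, and GALNT5 at 1.56 is the 1 gene beyond a fold change of 2.

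The makeup of the summed GALNT transcripts was also compared. The FPKM of the 10 members summed to 64.35, 61.2 and 65.6 in NC and to 69.6, 67.67 and 75.18 in siEIF1. Every siEIF1 sum was above every NC sum, with means of 63.7 ± 2.27 and 70.8 ± 3.90 (SD, n = 3) and a difference of 7.10. GALNT2 made up 17.2%, 18.6% and 18.3% of this sum in NC and 23.1%, 26.1% and 23.9% in siEIF1. GALNT12 made up 36.8%, 32.1% and 33.7% in NC and 28.9%, 26.0% and 29.4% in siEIF1. The share of GALNT2 was thus higher and that of GALNT12 lower in every siEIF1 library than in any NC library. GALNT10 had a mean share of 7.08% in NC and 9.21% in siEIF1, and GALNT7 one of 12.3% and 9.86%. GALNT1 held a like share in both groups, at 22.3% ± 1.18 and 22.7% ± 0.84. GALNT5 went from a mean of 0.199% to 0.525%, so that the 1 called member contributed little to the sum. Shares add up to a whole, and a lower share of GALNT12 does not mean that its level differed. They also rest on the FPKM lengths discussed above.

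**Figure D3:**
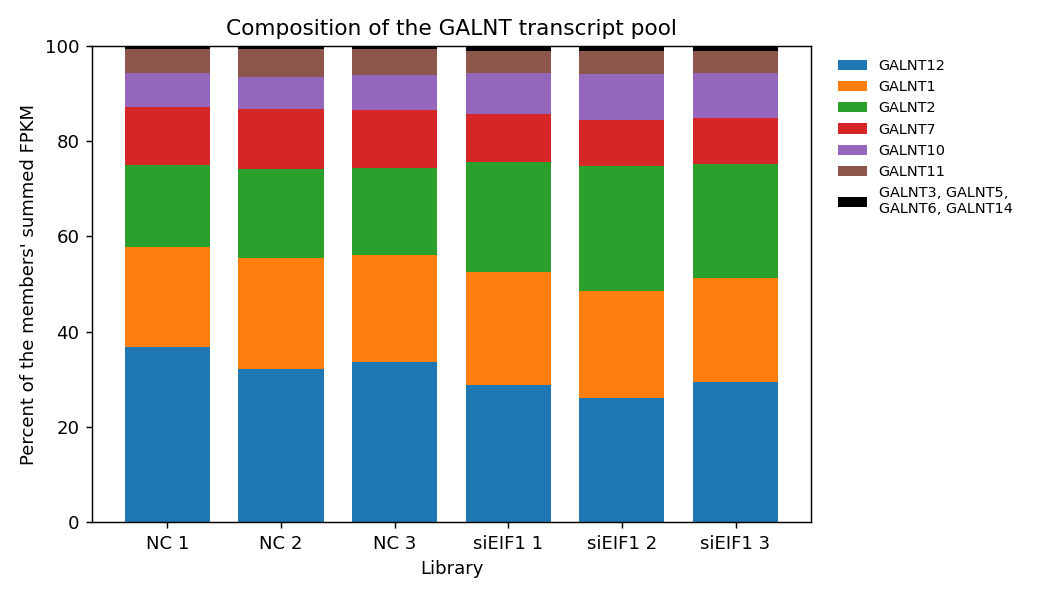
Share of each member in the summed FPKM of the 10 members, in percent, for each of the 6 libraries, with the 4 scarce members drawn together. The GALNT2 segment grows from a mean of 18.1% in NC to 24.4% in siEIF1 and the GALNT12 segment shrinks from 34.2% to 28.1%.

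Of the 11 other GALNT genes in the table, 6 were tested and 0 passed edgeR's quasi-likelihood test. The unadjusted p of 1 of them, GALNT13, was 0.0259, below 0.05. DESeq2 also passed 0. GALNT13 was the most abundant, with FPKM of 2.53, 2.6 and 2.55 in NC and 3.12, 2.7 and 2.76 in siEIF1. Its groups did not overlap, and its log2 fold change was 0.18 (SE 0.072, adjusted p = 0.0972). The log2 fold changes of the others were 0.16 (SE 0.092) for GALNT17, 0.07 (SE 0.10) for GALNT18, 0.24 (SE 0.16) for GALNTL6, -0.41 (SE 0.31) for GALNT16 and -0.14 (SE 0.13) for the read-through gene POC1B-GALNT4.

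The genes whose pattern over the 6 libraries was most like that of GALNT5 were TPM4, TGFB3, CYP1B1, ATOH8 and CNR1. Likeness was the root mean square difference of log2 CPM after centring each gene on its own mean, among 13382 genes with a mean count of at least 50. It was 0.197 for TPM4, an actin-binding tropomyosin, 0.199 for the growth factor gene TGFB3, 0.219 for the cytochrome P450 gene CYP1B1, 0.231 for the transcription factor gene ATOH8 and 0.234 for the cannabinoid receptor gene CNR1. The spread of GALNT5 itself on this scale was 0.705. Their log2 fold changes ranged from 0.93 for ATOH8 to 1.23 for TGFB3, below the 1.56 of GALNT5. The likeness is over 6 libraries in 2 groups, and it mostly reflects a higher level in the same 3 libraries.

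The steps around the GALNT reaction were described from lists of genes. The median log2 fold change of the tested genes was 0.12 for the other GALNT genes, -0.08 for O-glycan extension, -0.07 for sugar donor supply, 0.00 for enzymes that start other O-glycans, 0.25 for mucins and 0.04 for other O-glycosylated proteins, against 0.00 over all tested genes. Downstream, 1 of 9 tested genes that extend or cap the first sugar passed lower, against 10.4% of all tested genes. This was ST6GALNAC3, a sialyltransferase that acts on the first GalNAc, which fell from 1.98 ± 0.40 to 1.26 ± 0.24 FPKM (log2 fold change -0.64, SE 0.14, adjusted p = 0.00580). The FPKM of the most abundant gene of the list, the C1GALT1 chaperone C1GALT1C1, were 15.1 ± 0.98 in NC and 14.0 ± 1.03 in siEIF1, and it did not pass. C1GALT1, which adds the galactose of core 1, had 3.95 ± 0.30 and 3.53 ± 0.10 FPKM and a log2 fold change of -0.14 (SE 0.064, adjusted p = 0.143).

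Upstream, 4 of 14 tested genes that make or transport the nucleotide sugars passed, all with a lower level in siEIF1, where 10.4% of all tested genes passed lower. UAP1, which makes UDP-GlcNAc and UDP-GalNAc, was the most abundant of them. Its FPKM were 50.4, 36.81 and 41.99 in NC and 29.1, 25.5 and 29.52 in siEIF1. Although the NC libraries varied, all siEIF1 libraries lay below them, and the log2 fold change was -0.60 (SE 0.089, adjusted p = 3.86e-04). GNPNAT1, an acetyltransferase of the same route, fell by 0.24 (SE 0.070, adjusted p = 0.0249) on the log2 scale, and NANP, a phosphatase of sialic acid synthesis, fell by 0.29 (SE 0.088, adjusted p = 0.0329). UAP1 passed with any 1 library left out. The smaller changes were lost without some single libraries. GNPNAT1 missed the threshold without NC replicate 1, NC replicate 3 or siEIF1 replicate 2, and NANP missed it without any library but siEIF1 replicate 3. The count of 4 fell to 1 without NC replicate 1 or NC replicate 3 and to 2 without siEIF1 replicate 1 or siEIF1 replicate 2. It was 3 without NC replicate 2 and stayed at 4 without siEIF1 replicate 3.

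Enzymes that start other kinds of O-glycans showed 1 higher and 2 lower of 16 tested. These are 6.25% and 12.5%, near the 10.2% and 10.4% of all tested genes. OGT, which adds O-GlcNAc to nuclear and cytosolic proteins and was the most abundant at 30.4 ± 1.20 FPKM in NC, had a log2 fold change of -0.16 (SE 0.052, adjusted p = 0.0460). POGLUT3, a protein O-glucosyltransferase, had one of -0.26 (SE 0.069, adjusted p = 0.0166), and XYLT2, a xylosyltransferase that starts glycosaminoglycan chains, one of 0.19 (SE 0.057, adjusted p = 0.0328). The XYLT2 call was lost without each library in turn, at an adjusted p between 0.0569 and 0.132. Those of OGT and POGLUT3 were both lost without NC replicate 1 (adjusted p = 0.155 and 0.0601), NC replicate 2 (adjusted p = 0.0608 and 0.0533) or siEIF1 replicate 2 (adjusted p = 0.191 and 0.0821). That of OGT was lost also without NC replicate 3 (adjusted p = 0.113) or siEIF1 replicate 1 (adjusted p = 0.0625).

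**Figure D4:**
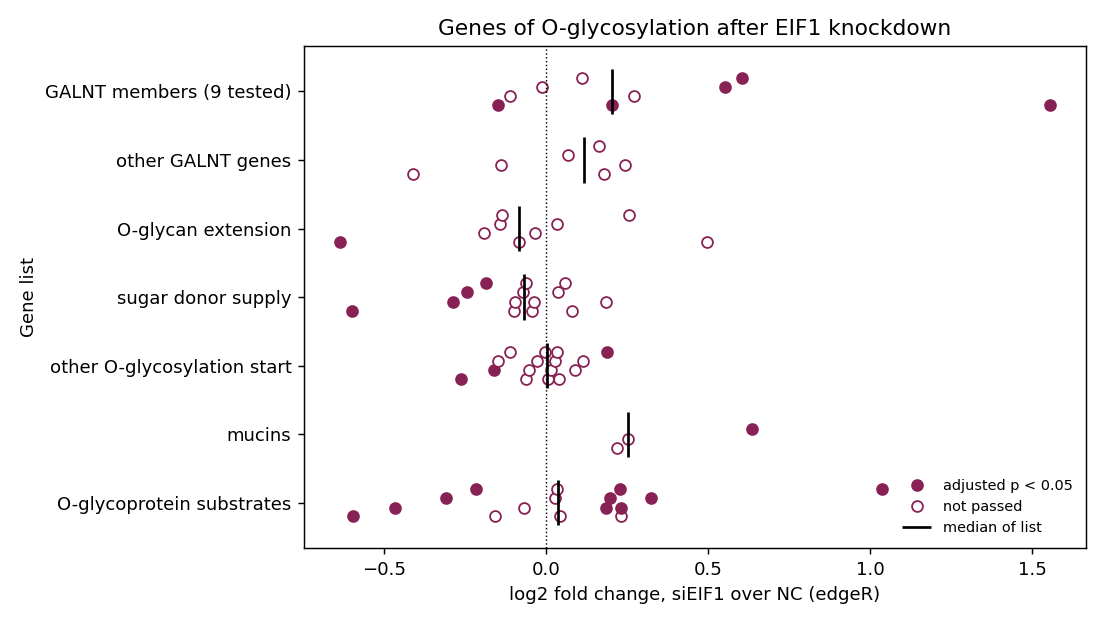
Log2 fold change of siEIF1 over NC for each tested gene of the GALNT members and 6 lists of O-glycosylation genes, with filled points for an adjusted p under 0.05 and a bar at the median of each list. Sugar donor supply has 4 filled points, all below 0, and the O-glycoprotein substrates have filled points on both sides, 6 above and 4 below 0.

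Acceptor proteins of the GALNT enzymes made up the last lists. Of 3 tested mucins, MUC1, a membrane mucin of epithelia, passed higher, against 10.2% of all tested genes. Its FPKM were 0.45, 0.55 and 0.43 in NC and 0.65, 0.81 and 0.74 in siEIF1, and the groups did not overlap. Its log2 fold change was 0.64 (SE 0.16, adjusted p = 0.0129), and the call was lost without NC replicate 1 (adjusted p = 0.0535), NC replicate 3 (adjusted p = 0.0628) or siEIF1 replicate 2 (adjusted p = 0.0697). Of 16 tested genes of other O-glycosylated proteins, 6 passed higher and 4 lower. These are 37.5% and 25%, against 10.2% and 10.4% of all tested genes. The 6 higher became 3 without NC replicate 2 and 3 with limma at either pseudocount, while the count of lower genes was 4 in these fits as well. PODXL, a sialomucin of the cell surface, had counts of 1102, 993 and 1030 in NC and 2105, 2113 and 2709 in siEIF1. These did not overlap, and its log2 fold change of 1.03 (SE 0.097, adjusted p = 9.11e-06) was the only one of the list past a fold change of 2. It lay near that limit and was under it without NC replicate 2 (0.98) or siEIF1 replicate 3 (0.90), with its adjusted p still under 0.05. CD164, another sialomucin, rose by 0.32 (SE 0.047, adjusted p = 3.49e-04). The transferrin receptor gene TFRC fell by 0.47 (SE 0.073, adjusted p = 6.07e-04) and the complement regulator gene CD55 fell by 0.31 (SE 0.050, adjusted p = 7.26e-04), all on the log2 scale. CD44, a hyaluronan receptor and the most abundant of the list by FPKM, had 44.4 ± 2.58 FPKM in NC and 50.2 ± 3.12 in siEIF1, with a log2 fold change of 0.20 (SE 0.057, adjusted p = 0.0256). The CD44 call was lost without NC replicate 2 (adjusted p = 0.123), NC replicate 3 (adjusted p = 0.129) or siEIF1 replicate 1 (adjusted p = 0.0782).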

How the data were processed

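RNA-seq was analysed for 3 NC and 3 siEIF1 libraries of ARPE-19 cells, grouped by their titles. The authors trimmed reads with FASTX-Toolkit, aligned them to GRCh38 with HISAT2 and deposited raw counts of uniquely mapped reads per gene, together with FPKM, which the authors computed from the same reads. The counting program, strand setting and annotation release are not given in the sources used here. The methods state independent biological replicates and a single sequencing run, and 0 columns were left unmatched.

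Genes passing filterByExpr (16749) were tested on the counts by the quasi-likelihood test of edgeR 4.0.16 in R 4.3.3, after TMM scaling, and p-values were adjusted by Benjamini and Hochberg over all of them. Called genes had to pass 0.05 after adjustment and to differ by more than 2-fold in either direction. Standard errors come from the F statistic. The code was tested on simulated data. Alternatives were other normalizations and count filters, DESeq2 1.42.0, limma 3.58.1 on log2(FPKM + 1) and log2(FPKM + 0.1), a fold threshold of 1.5, each library left out, and the replicate number as a block. Deviations from the group means correlated at 0.152, 0.129 and 0.167 between libraries of the same number and at -0.21 to 0.048 between others. The sources used here state no pairing, and weak correlations over 3 libraries per group cannot establish one. The values printed are from the fit without the block, as in the study's methods, and those with it are named as such.

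The members and gene lists were chosen with earlier results of these data known. Named genes are the members, EIF1, other tested GALNT genes, markers, per list up to 4 passing genes with the smallest p and the most abundant gene, and the 5 genes most like a called member. PLTP and C1GALT1 were added after their values were seen, and 1 gene that the rule names is not reported here. Gene positions and overlaps are from GENCODE on GRCh38 and promoters from RefSeq (GRCh38.p14), which held entries for 8 members. Those of GALNT5 and GALNT6 are not shown.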

Additional observations from a re-analysis of the deposited data

How the results depend on the processing

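GALNT1, GALNT2, GALNT5 and GALNT10 kept their direction and their side of the threshold in all 14 alternative fits. These fits reuse the values on which the members were chosen, so this is a description. GALNT7 kept its direction in all 14 and missed the threshold in 9. The count of members passing with a lower level was therefore 0 without a count filter, with DESeq2 and with limma at either pseudocount, and ranged from 0 to 1 when single libraries were left out. The count of all members passing ranged from 4 to 5. Members called past a fold change of 2, all higher, went from 1 to 0 with limma on log2(FPKM + 1), where low FPKM are compressed by the pseudocount, and the count was 2 at a fold threshold of 1.5 (GALNT5 and GALNT2). With the replicate number as a block, 4 members passed higher and 1 lower, 1 member was called, and 21 genes of the pathway lists passed in place of 19, so that no call of a member changed. Over all tested genes, 4277 passed with the block and 3446 without it. Of the pathway lists, 19 genes passed, 8 higher and 11 lower. This was 12 with limma on log2(FPKM + 1), and 4 were higher at either pseudocount. Leaving out single libraries gave 10 to 17, with 4 to 6 higher and 6 to 11 lower, and the lowest count was without NC replicate 1. The cause was not tested. With single libraries left out, the log2 fold change of GALNT6 ranged from -0.12 to 0.49, reversed to -0.12 without NC replicate 2 and to -0.032 without siEIF1 replicate 3. That of GALNT11 ranged from -0.048 to 0.012, reversed to 0.012 and 0.010 without NC replicate 2 and siEIF1 replicate 1. Neither gene passed the threshold in any fit. Depth limits GALNT3, GALNT6 and GALNT14, with at most 39 reads in any library.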
